A study of Homo sapiens with 2 samples.

Results

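The genes described here build and serve the nuclear pore: the nucleoporins, which form the pore, the importins and exportins, which carry proteins and RNA through it, and RAN, the small GTPase that sets the direction of transport. They were chosen by symbol, from probe sets that the platform annotation gives to 1 gene, and each gene was read by its brightest probe set, taken on the mean log2 intensity of both arrays. Of 19777 genes on the array, 51 were members by this rule: 19 importin symbols, 7 exportins, 24 nucleoporins and RAN. The symbols IPO5P1, a transcribed pseudogene, and IPO9-AS1, a long non-coding RNA, matched the pattern but encode no receptor, which leaves 17 protein-coding importins. The measured values chose the probe set of each gene, and the genes were picked with earlier results of these arrays known, so all values below are a description and none is a test.

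RNA came from MKN28, an established human gastric cancer cell line that is listed as a misidentified derivative of the line MKN74. One sample was labelled as overexpressing Sox2, after infection with a lentivirus carrying Sox2 and selection of infected cells with puromycin. The other was labelled as control, and the labels do not say which virus, if any, it received or whether the line is 1 clone. Each was read on 1 Affymetrix array, so there are no replicates, and each difference below is between 2 arrays, with no replicate error and no p-value. Fewer cells and less RNA per cell cannot be told apart in such bulk samples.

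Transport through the pore is a cycle. Importin alpha proteins bind the classical nuclear localisation signal of a cargo and dock on importin beta, while other importins and the transportins bind their cargo directly. Inside the nucleus RAN bound to GTP releases imported cargo, and together with an exportin it forms the complexes that leave. The nucleoporins form stacked rings: an inner ring and outer rings (the Y complex) as scaffold, a central channel filled with phenylalanine-glycine repeats, filaments on the cytoplasmic side and a basket on the nuclear side.

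SOX2, the gene named in the label, read 172 in the Sox2-labelled array and 123 in the control by its brightest probe set (0.49 on the log2 scale), and further probe sets differed by 0.31, -0.023 and -0.46. The label could therefore not be checked by its target, and every direction below rests on it. A gene was counted when the higher of its 2 intensities reached the array-wide median of 34.25, leaving 14254 genes with a median log2 difference (labelled Sox2 minus control) of -0.0032. Array precision is limited by the number of arrays. The only spread available is between probe sets of 1 gene: an SD of 0.28 for a log2 difference, from 3471 genes with 2 probe sets past this filter. The poly-A spike-ins, control transcripts put into the RNA ahead of labelling, read lower with the Sox2 label by all 24 of their probe sets (median log2 difference -0.75). Of 5 gastric epithelial markers 4 passed the filter and EPCAM, at 4.96 and 6.32, did not. The summed intensities were 244 and 268 for these markers, 1196 and 1141 for 6 fibroblast markers, 215 and 212 for 3 endothelial markers and 133 and 126 for 3 leukocyte markers, in the Sox2-labelled and control arrays. Most of the fibroblast sum came from COL1A1 (557 and 576) and COL3A1 (418 and 374). The sums compare the arrays and not the lists, since probe sets differ in binding strength. PTPRC and CD14, of the leukocyte list, lay under the filter, while CD3E of that list passed it at 82.0 and 71.4. All 3 endothelial markers passed too, so passing the filter does not show that a cell type was present. The part of these levels in the results below was not tested.

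Of 6 importin alpha genes 3 read at least 2-fold higher in the Sox2-labelled array, as did 2 of 3 transportins, IPO7 and 3 nucleoporins. Of the 51 members 43 passed the filter, and 9 of these were at least 2-fold higher in the Sox2-labelled array, beside 2.05% of all genes past the filter. None was at least 2-fold lower, beside 0.645% of all genes, and a difference under 2-fold was the rule on the whole array, with 13870 of 14254 genes. The 9 were 6 importins (TNPO3, KPNA1, KPNA4, KPNA3, TNPO1 and IPO7) and 3 nucleoporins (NUP155, NUP153 and NUP58). The median log2 difference of the 43 was 0.45, against -0.0032 for all genes, and 36 of them lay above 0, beside 49.6% of all genes. At 1.5-fold, 16 were higher and 1 lower, beside 6.46% and 3.77%. At 3-fold, TNPO3 and NUP155 were higher, beside 0.0982% of all genes, and none lower, beside 0.0351%. The count rests on the brightest probe set of each gene. With all probe sets of a gene averaged, 31 members passed and only KPNA3 and NUP155 reached 2-fold, beside 0.564% of all genes. NUP155 has 1 probe set, so averaging could not move it. This average takes in probe sets under the filter. It was 0.68 for KPNA1, whose 2 probe sets past the filter gave 1.45 and 1.35. For TNPO3 it was 0.83, with 1 probe set past the filter at -0.76.

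**Figure D1:**
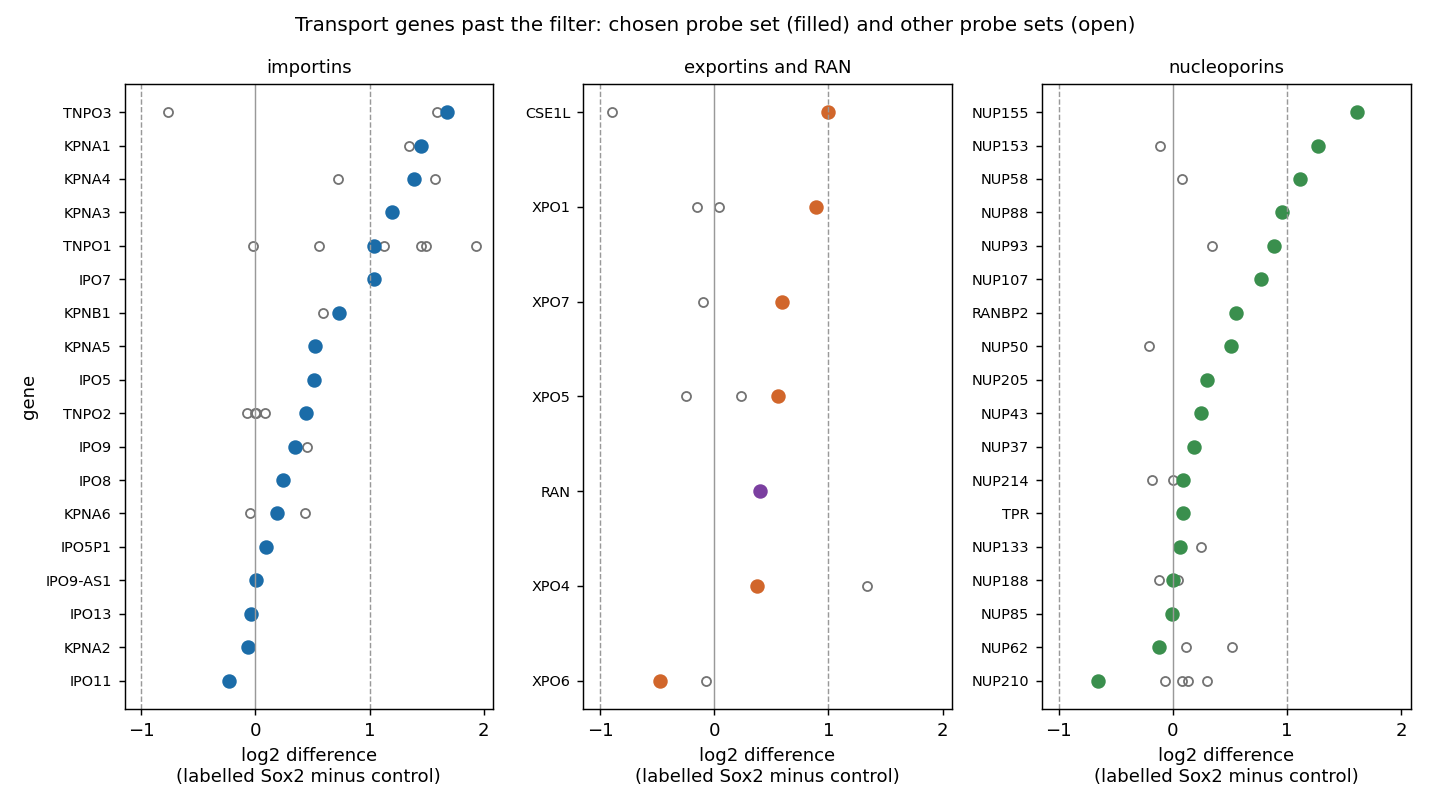
Log2 difference between the arrays (labelled Sox2 minus control, x axis) for the 43 transport genes past the filter, 1 gene per line, in panels for importins, exportins with RAN, and nucleoporins. Filled points are the probe set that stands for the gene and open points its remaining probe sets past the filter; solid lines mark 0 and dashed lines a 2-fold difference, which 9 filled points pass on the right and none on the left.

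Importin alpha genes differed among themselves. KPNA1 read 345 in the Sox2-labelled array and 126 in the control, 2.74-fold higher or 1.45 on the log2 scale. KPNA4 read 1179 and 450.0 (2.62-fold, log2 1.39), and KPNA3, its close relative, 191 and 83.1 (2.29-fold, log2 1.20). The SD of 0.28 between probe sets of 1 gene holds no variation between cultures or arrays, so it sets no error on these differences between samples. The other importin alpha genes were under 2-fold. KPNA5 read 35.1 and 24.5 (log2 0.52), passing the filter only through the Sox2-labelled array. KPNA6 read 96.8 and 85.1 (log2 0.19). KPNA2, an importin alpha abundant in dividing cells, read 60.0 and 62.9 (log2 -0.067).

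For KPNA1 and KPNA4 the other probe sets past the filter lay on the same side. KPNA1 had 141 and 55.3 by its remaining probe set past the filter, a log2 difference of 1.35. KPNA4 had 427 and 143 (log2 1.58), and 38.9 and 23.5 (log2 0.72) by a probe set that passed only through the Sox2-labelled array. KPNA1 and KPNA4 thus each had 1 further probe set past 2-fold. KPNA3 had no other probe set past the filter, and one under it read 31.4 and 15.6 (log2 1.01). Dim probe sets of KPNA1 and KPNA4, all under the filter, differed in both directions, from -0.62 to 1.03 on the log2 scale.

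KPNB1, importin beta, the carrier that importin alpha docks on, read 249.97 and 150.1, 1.67-fold higher (log2 0.74), with 0.59 by its remaining probe set past the filter. CSE1L, the exportin that returns importin alpha to the cytoplasm, stood just under the threshold by its brightest probe set, at 185 and 92.4 (log2 0.998). Its remaining probe set past the filter went the opposite way, at 53.1 and 98.6 (log2 -0.89), and the mean over its probe sets was -0.25. IPO7 and TNPO1 lay just inside the threshold, at 1.04 each, and fell short of it with lowess centring (0.87 and 0.88) and with quantile normalization (0.85 and 0.83).

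The transportins held the largest difference of the 43 genes. TNPO3, the import receptor of SR splicing factors, read 617 in the Sox2-labelled array and 193 in the control, 3.20-fold higher or 1.68 on the log2 scale. Another TNPO3 probe set read 343 and 114 (log2 1.59), but a further one went the other way, at 59.1 and 100.4 (log2 -0.76). TNPO1, transportin, which imports hnRNP proteins, read 1845 and 897 (2.06-fold, log2 1.04). Of its 6 other probe sets past the filter, 5 lay above 0 and 4 were at least 2-fold higher, the furthest at 112 and 29.3 (log2 1.93), and 1 differed by -0.023. Of those 4, 2 passed the filter only through the Sox2-labelled array, where they were high, among them the furthest. TNPO2, its close relative, read 294 and 216 (log2 0.45), and the 4 further ones past the filter lay between -0.073 and 0.084.

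Most of the IPO genes were under 2-fold. IPO7, which imports ribosomal proteins among other cargoes, read 1240 and 604 (2.05-fold, log2 1.04). Its 3 other probe sets were under the filter, at log2 differences of 0.018, 0.22 and 1.21. Its close relative IPO8 read 72.2 and 61.1 (log2 0.24). IPO5, another importer of ribosomal proteins, read 143 and 100.2 (log2 0.51), and its remaining probe set past the filter gave the same 0.51. IPO9, an importer of histones, read 36.4 and 28.6 (log2 0.35), passing only through the Sox2-labelled array. IPO13, a receptor that carries cargo both ways, read 150.4 and 155 (log2 -0.042). IPO11 read 30.0 and 35.3, the lowest difference among importins (log2 -0.24), and passed only through the control array. IPO4 lay under the filter, at 10.04 and 8.75. The non-coding symbols IPO5P1 (37.7 and 35.4) and IPO9-AS1 (46.3 in both) differed by 0.092 and 0.0012. Among the 18 importin symbols past the filter the median log2 difference was 0.48, and among the 16 protein-coding ones 0.52.

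**Figure D2:**
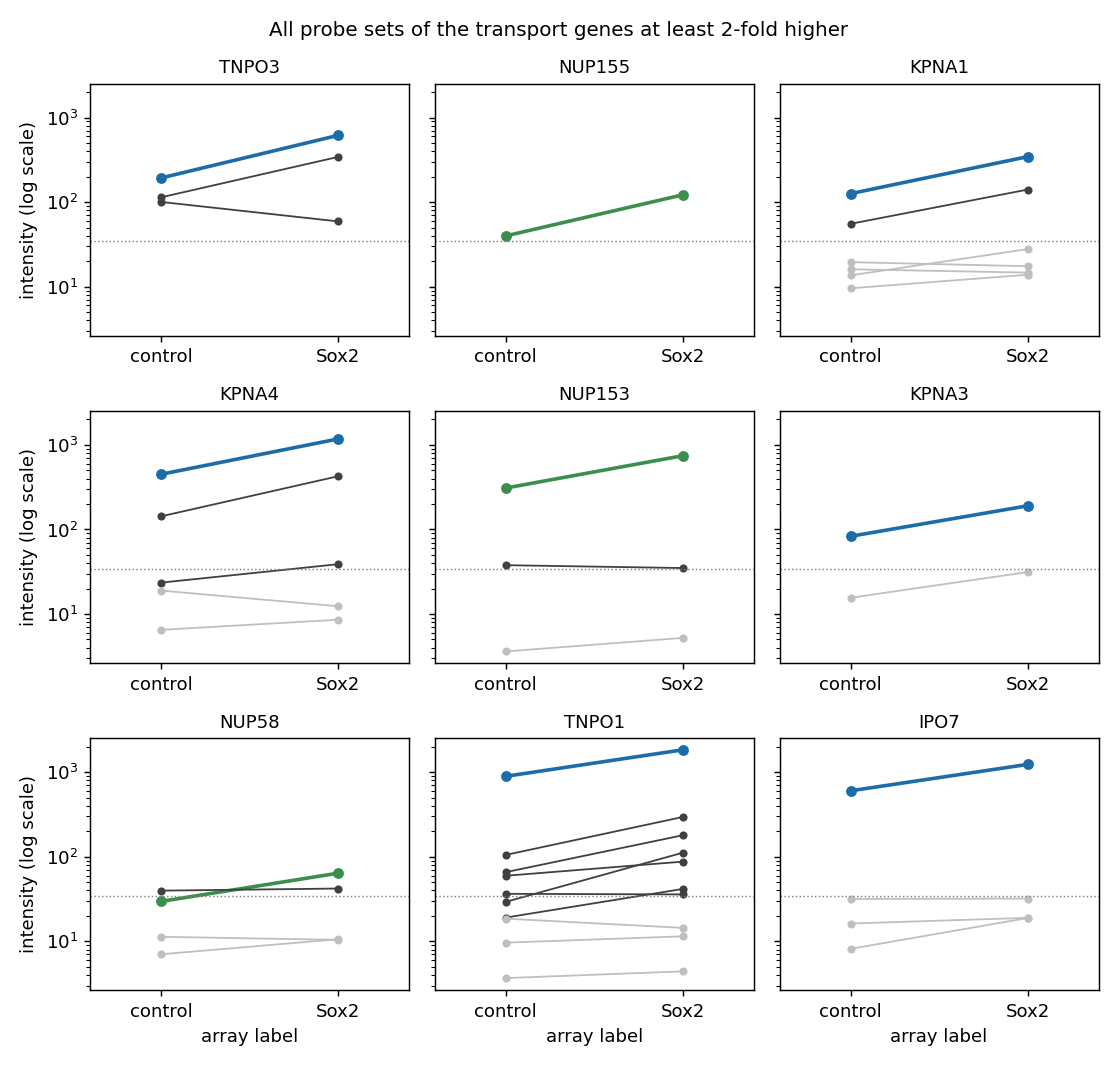
Intensity (log scale) of every probe set in the array labelled control and the Sox2-labelled array, for the 9 transport genes at least 2-fold higher. Thick coloured lines are the probe set that stands for the gene, dark lines other probe sets past the filter and light lines those under it (dotted line, 34.25); the dark lines of KPNA1 and KPNA4 run upward, 1 of TNPO3 runs downward and that of NUP153 is nearly level.

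All 6 exportins past the filter were under 2-fold by their brightest probe set, as were most genes of the array, and for several of them another probe set went the other way. XPO1, the main exportin of proteins with a leucine-rich export signal, read 2397 in the Sox2-labelled array and 1293 in the control (1.85-fold, log2 0.89). Its remaining probe sets past the filter read 131 and 145 (log2 -0.15) and 75.9 and 73.5 (log2 0.046). The higher reading of XPO1 thus came from 1 of its 3 probe sets. XPO5, which exports microRNA precursors, read 132 and 89.8 (log2 0.56), and XPO7 read 116 and 76.9 (log2 0.60). By their remaining probe sets past the filter XPO5 differed by -0.25 and 0.24, and XPO7 by -0.095. XPO4 read 113 and 87.0 (log2 0.37), with a larger difference by its other probe set, at 48.5 and 19.2 (log2 1.34). XPO6, which exports actin bound to profilin, was lower, at 93.9 and 130 (1.39-fold lower, log2 -0.47), with -0.071 by another probe set, and 0.28 when the arrays are scaled on the spike-ins. XPOT, the exportin of tRNA, lay under the filter at 21.9 and 20.4. The 6 exportins past the filter had a median log2 difference of 0.58, but of their 8 other probe sets past the filter 5 lay below 0, with a median of -0.083, and the median over averaged probe sets was 0.22.

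RAN read 75.1 and 56.7 (1.32-fold, log2 0.40) by its only probe set past the filter, and 7.73 and 7.79 by the other. RAN is an abundant protein, so an intensity this near the median of the array does not show its level: the binding strength of probes varies from probe set to probe set. For the same reason no gene is ranked against another by abundance here.

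Among the nucleoporins, the inner ring gene NUP155 stood furthest from equality. NUP155 read 122 in the Sox2-labelled array and 39.9 in the control (3.06-fold, log2 1.61), by its only probe set. NUP93, its partner in the inner ring, read 257 and 139 (1.85-fold, log2 0.89), with 0.34 by another probe set past the filter. NUP205 read 133 and 108 (log2 0.30). NUP188, which takes the place of NUP205 in part of the inner ring complexes, read 133 in both (log2 0.0035), and its remaining probe sets past the filter gave -0.13 and 0.040. NUP35 lay under the filter, at 20.9 and 11.7 (log2 0.84). The inner ring genes past the filter therefore ran from equal readings to over 3-fold, and 1 of the 4 reached 2-fold.

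The nuclear basket held another of the 3. NUP153, a repeat-bearing nucleoporin that anchors the basket, read 746 and 309 (2.41-fold, log2 1.27). Its remaining probe set past the filter, close to the filter, read 35.0 and 37.8 (log2 -0.11). NUP50, which helps to take importin alpha off its cargo, read 81.6 and 57.5 (log2 0.51), against -0.21 by another probe set. TPR, the coiled-coil protein of the basket filaments, read 56.0 and 52.7 (log2 0.086). So of these 3 genes only NUP153 was past 2-fold, and its other measurement did not share the difference.

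In the central channel NUP58 read 64.1 and 29.7 (2.16-fold, log2 1.11), passing the filter only through the Sox2-labelled array. Another NUP58 probe set past the filter read 42.2 and 39.8 (log2 0.083). NUP62, the central repeat protein of the channel, read 51.3 and 56.0 (log2 -0.12) by its brightest probe set. Its other probe sets past the filter read 54.6 and 38.3 (log2 0.51) and 34.3 and 31.7 (log2 0.11). NUP54 was dim in both arrays, at 6.98 and 13.1. Of the channel genes, which work as 1 complex, 2 passed the filter and 1 reached 2-fold. The direction of NUP62 depended on the probe set, and its log2 difference was 0.17 with probe sets averaged.

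On the cytoplasmic side NUP88, a partner of NUP214, read 1153 and 595 (1.94-fold, log2 0.95). NUP214, which carries docking repeats, read 159 and 149 (log2 0.087), with -0.18 and -0.0027 by its other probe sets. RANBP2, a protein of the cytoplasmic filaments and a SUMO ligase, read 129 and 88.0 (1.46-fold, log2 0.55) by a probe set past the filter. NUP42 (32.9 and 27.0) and NUP98 (30.4 and 31.2) lay just under the filter.

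The outer ring held no 2-fold difference. NUP107 read 69.2 and 40.5 (1.71-fold, log2 0.77) by its only probe set. The other 4 past the filter, NUP133, NUP85, NUP37 and NUP43, lay between -0.0080 and 0.25, and NUP160 was under it at 25.7 and 19.1. NUP85 read 75.3 and 75.8. NUP210, the membrane nucleoporin, was the only transport gene past the filter at least 1.5-fold lower, at 79.1 and 125 (1.58-fold lower, log2 -0.66). Its 4 other probe sets past the filter lay between -0.073 and 0.30, so that difference was seen by 1 of 5 probe sets. Scaled on the spike-ins, the log2 difference was 0.092. NUP210L, a relative of NUP210, was dim, at 6.39 and 10.7. Over the 18 nucleoporins past the filter the median log2 difference was 0.27, with 15 above 0.

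Probe sets that did not stand for their gene were ranked in the choice of probe set and were the dimmer ones. They also come from the same arrays, so they are no separate check. Of 43 such probe sets past the filter, from 24 transport genes, 8 were at least 2-fold higher and 0 at least 2-fold lower, beside 1.84% and 0.322% over all genes. Of these 8, 3 passed the filter only through the Sox2-labelled array (2 of TNPO1 and 1 of XPO4), so they had to differ. With the filter on the mean log2 value of both arrays, chosen after seeing the data, 6 of 38 were at least 2-fold higher, beside 1.67% over all genes. Over the 43 probe sets past the first filter the median log2 difference was 0.084, against 0.0053 over all genes. By class, 7 of 20 importin probe sets were at least 2-fold higher, 4 of the 7 from TNPO1, with a median of 0.53. Of the exportins it was 1 of 8, with a median of -0.083, and of the nucleoporins 0 of 15, with a median of 0.076. Of the 9 genes at 2-fold, 6 had another probe set past the filter. In 3 of them all probe sets past the filter lay above 0: KPNA1, KPNA4 and NUP58, the last with only 0.083 by its other one. Here 1 probe set of KPNA4 and the brightest of NUP58 passed only through the Sox2-labelled array, so they had to lie above 0. The share of all genes with such agreement was not computed. Over those 6 genes, 7 of 13 other probe sets were at least 2-fold higher and 10 above 0, beside 22.2% and 75.7% for all genes at least 2-fold higher. TNPO1 alone gave 6 of these 13 and 4 of the 7, so these counts are not counts of genes. Of its 4, 2 passed the filter only through the Sox2-labelled array. Over the members not called, 1 of 30 was at least 2-fold higher, a probe set of XPO4, beside 0.904% for all genes not called.

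In the whole array a larger share of bright and of long genes was at least 2-fold higher. The transport genes at 2-fold were mostly both. Of 9 transport genes with a geometric mean intensity of at least 200, 6 were at least 2-fold higher, beside 10.9% of all genes of that level. Between 100 and 200 it was 1 of 12, beside 2.43%. Between 50 and 100 it was 1 of 13, beside 0.844%, and under 50 it was 1 of 9, beside 0.627%. Across the 43 genes the log2 difference and the mean log2 intensity had a Pearson r of 0.52 and a Spearman rho of 0.49, against 0.12 and 0.066 over all 14254 genes. These are a description over genes, which share both arrays and are not replicates. The median genomic length was 63602 bases for the transport genes past the filter and 24434 for all genes past it. All 9 genes at 2-fold were among the 37 at or above that median of all genes, where 3.4% of all genes were called, and none was among the 6 shorter ones, where 0.689% were. Of 20 transport genes both at least that long and with a mean intensity of 100 or more, 7 were at least 2-fold higher, beside 9.08% of all such genes. With the trend along genomic length removed, the median over the 43 genes was 0.45 and 8 were at least 2-fold higher, beside 1.92% of all genes. The part of level and length in these differences was not tested further.

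**Figure D3:**
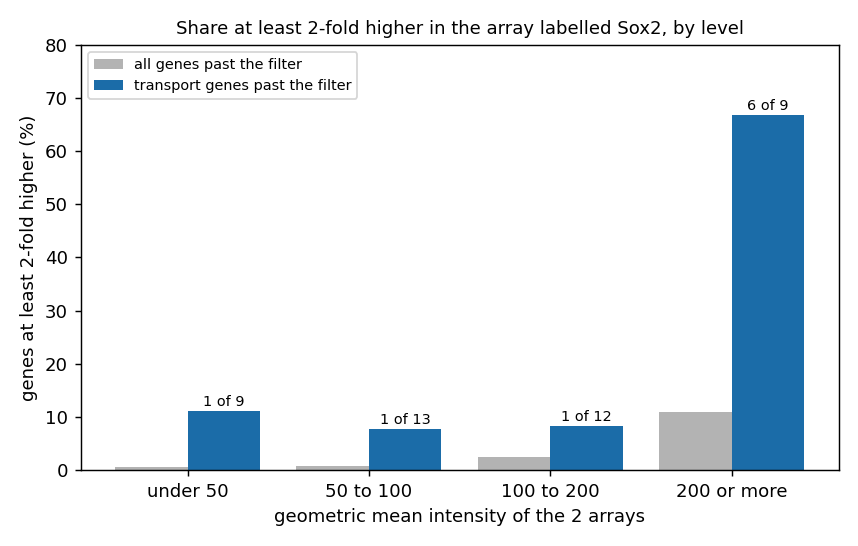
Share of genes (%) at least 2-fold higher in the Sox2-labelled array, in 4 ranges of the geometric mean intensity of both arrays. Grey bars are all genes past the filter and blue bars the transport genes past it, with their counts; in the brightest range 6 of 9 transport genes stand beside 10.9% of all genes.

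**Figure D4:**
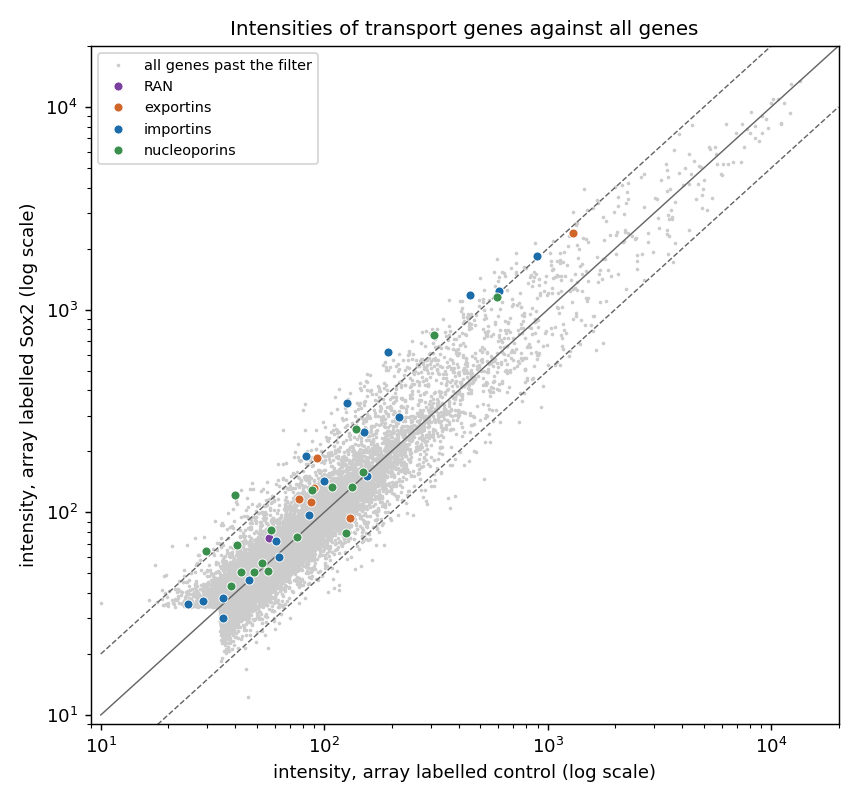
Intensity in the Sox2-labelled array against the array labelled control, both on log axes, for all genes past the filter (grey) and the transport genes by class (coloured). The solid line marks equal readings and the dashed lines a 2-fold difference; the coloured points lie mostly above the solid line, 36 of 43.

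The sequence before the transcription start is shown for the 4 genes with the largest differences among those with a promoter in the RefSeq table. Each is the 250 bases before the first start listed for the gene, 5′ to 3′ on the strand of the gene, from RefSeq on GRCh38.p14. Capitals mark letters that match a motif searched on both strands: GCATGC for the core of the NRF1 motif, CCGGAAG for ETS factors, GGGCGG for SP1, CCAAT for the box of that name, TATAAA for the TATA box, and either CATTGT or else CTTTGT for SOX factors. TNPO3 lies at chr7:129055112-129055361, NUP155 at chr5:37371107-37371356, KPNA1 at chr3:122514940-122515189 and NUP153 at chr6:17706926-17707175, all on the minus strand.
TNPO3: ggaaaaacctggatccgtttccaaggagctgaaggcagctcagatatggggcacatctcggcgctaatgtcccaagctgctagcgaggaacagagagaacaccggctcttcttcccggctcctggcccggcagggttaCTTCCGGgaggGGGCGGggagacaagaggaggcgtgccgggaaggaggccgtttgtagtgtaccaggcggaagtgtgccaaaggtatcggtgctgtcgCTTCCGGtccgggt
NUP155: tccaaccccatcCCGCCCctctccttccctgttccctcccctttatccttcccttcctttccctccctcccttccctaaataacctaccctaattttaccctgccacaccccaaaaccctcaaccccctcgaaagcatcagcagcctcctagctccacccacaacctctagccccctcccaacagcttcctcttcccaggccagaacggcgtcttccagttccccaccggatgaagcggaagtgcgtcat
KPNA1: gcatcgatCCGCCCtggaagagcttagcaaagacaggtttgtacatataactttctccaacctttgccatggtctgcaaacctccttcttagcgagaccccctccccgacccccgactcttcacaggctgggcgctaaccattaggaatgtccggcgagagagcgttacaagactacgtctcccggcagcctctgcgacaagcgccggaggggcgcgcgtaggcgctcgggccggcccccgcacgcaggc
NUP153: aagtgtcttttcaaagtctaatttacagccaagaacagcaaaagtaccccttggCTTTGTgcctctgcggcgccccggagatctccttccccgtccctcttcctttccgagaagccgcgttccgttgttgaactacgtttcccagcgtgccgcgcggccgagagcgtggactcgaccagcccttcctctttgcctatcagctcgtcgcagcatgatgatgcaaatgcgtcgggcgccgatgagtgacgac

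The 4 sequences share no single motif. TNPO3 holds the ETS letters at 2 places and the SP1 letters at 1, NUP155 and KPNA1 the SP1 letters at 1 place each, and NUP153 the SOX letters at 1 place. Of the 51 members, 45 had an entry, with KPNA4, KPNA5, KPNB1, NUP43, XPO7 and IPO5P1 not among them. The ETS letters occurred in 12 of the 45, 26.7%, against 12.4% of 11182 promoters of genes past the filter and 8.82% of all 27305 promoters. The CCAAT letters occurred in 21 (46.7%, against 34% and 33%) and the NRF1 letters in 6 (13.3%, against 7.15% and 6.44%). The SP1 letters occurred in 23 (51.1%, against 59.6% and 42.3%). The SOX letters occurred in 4 of the 45, 8.89%, against 16.1% and 21.4%, and in 1 of the 8 promoters of genes at 2-fold, that of NUP153. The TATA letters occurred in 2 (4.44%, against 7.4% and 11.1%). Of the 8, the ETS letters occurred in 2, the SP1 letters in 5 and the CCAAT letters in 1. A match of letters is a description and not a site, and a window without them says nothing of the factor.

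Other genes of the pathway, taken from a fixed list of 43, had a probe set of their own for 35, of which 29 passed the filter. Of these 2 were at least 2-fold higher, beside 2.05% of all genes, 1 was at least 2-fold lower, beside 0.645%, and 26 were under 2-fold, with a median log2 difference of 0.27. None of 7 genes listed for the RAN cycle or by a RAN-binding name reached 2-fold. The largest difference was that of RANBP9, a scaffold protein named for binding RAN and no step of the cycle described above. It read 1212 and 749 (1.62-fold, log2 0.70), and further probe sets past the filter gave 0.73 and 0.94. RCC1, which loads RAN with GTP, read 164 and 117 (log2 0.49), but -0.18 by another probe set past the filter. RANGAP1, which switches RAN off in the cytoplasm, read 200.01 and 165 (log2 0.28), with 0.18 and 0.012 by further ones. None of 6 further pore proteins did, and the largest was SEC13, an outer ring protein shared with the COPII coat, at 642 and 520.5 (1.23-fold).

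The RNA export genes held both directions. NCBP1, the large subunit of the nuclear cap-binding complex, read 139 and 47.7 (2.92-fold), while NCBP2, its small subunit, read 41.5 and 34.1 (1.22-fold). ALYREF, which links spliced mRNA to its export receptor, read 97.3 and 214 (log2 -1.14), with -0.27 by its remaining probe set past the filter. THOC2, the scaffold of the THO complex, read 290 and 152 (log2 0.93), with 0.32 and -0.024 by further probe sets past the filter, and 12 of 14 genes of this list were under 2-fold. SENP1, a SUMO protease found at the pore, read 127 and 51.9 (2.45-fold), but 32.0 and 37.7 by another probe set past the filter.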

How the data were processed

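The authors deposited linear intensities, 1 per array for each of 54675 probe sets. The submitters' processing notes name RMA; no source used here gives its version, settings or the last step behind these values. No detection calls, scanner images or probe intensities were used here. Intensities were taken to log2 with no further scaling. Probe sets were named by the platform annotation, and all 51 member symbols matched RefSeq. A gene was read by its brightest probe set (mean log2 over both arrays) and passed the filter when at least 1 array read it at or above the median of all values. With 1 array per group no test was possible, so genes were counted at 2-fold. Genes named are SOX2, the markers and all members, with those at 2-fold and the extremes of each group described most, and of the other transport lists the genes at 2-fold or the 1 with the largest difference. NCBP2, RCC1, RANGAP1 and THOC2 were chosen after their values were seen. The members and lists were chosen with earlier results of these data known. The classes counted IPO5P1 and IPO9-AS1 as importins by their symbols. The procedures were tested on simulated data with 200 changed genes per simulation. All probe sets of a changed gene moved together there, with less noise than the spread between probe sets seen here. The choice among probe sets that disagree was therefore not tested. Genomic lengths are those of RefSeq. Alternatives covered the probe set, the filter, the scaling (lowess span 0.3), genomic length and the fold; the protein-coding count and spike-in scaling were added after seeing the data. Python 3.11.15, numpy 2.4.6, pandas 2.3.3, SciPy 1.17.1, statsmodels 0.14.6 and matplotlib 3.10.9 were used.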

Additional observations from a re-analysis of the deposited data

How the results depend on the processing

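No paired analysis was possible because each group had 1 array, and leaving out a replicate was not possible for the same reason. Under the planned settings at the 2-fold threshold no class had a member at least 2-fold lower, and the median log2 difference ranged from 0.18 to 0.56 over all members, 0.42 to 0.74 for importins, 0.22 to 0.74 for exportins and 0.16 to 0.55 for nucleoporins. With probe sets averaged, 2 members were at least 2-fold higher, 1 importin and 1 nucleoporin, and the exportin median was 0.22; fewer members (31) passed. Exportins had 1 member at 2-fold with the probe set of largest difference and 1 with lowess centring, against 0 as reported. Importins at 2-fold went from 6 to 4 with lowess centring and with quantile normalization, and all members from 9 to 8 and 7, beside 1.71% and 1.49% of all genes. At 1.5-fold, 16 members were higher and 1 lower, with 3 exportins higher, and 6 nucleoporins higher and 1 lower. At 3-fold, 2 were higher, 1 importin and 1 nucleoporin. Scaling on the poly-A spike-ins moved the median of all genes to 0.76, put 20.7% of them at least 2-fold higher, and gave 29 members at least 2-fold higher (median 1.17), 11 importins at least 2-fold higher (median 1.23), 5 exportins at least 2-fold higher (median 1.31), 12 nucleoporins at least 2-fold higher (median 1.04). The 7 members below 0 then lay above it. With _x_at and _s_at probe sets left out, which may cross-hybridise, NUP210 read 0.076 in place of -0.66. Of the 9 genes at 2-fold, NUP155, KPNA3 and NUP58 stayed past it in every planned setting that gave them a value. NUP58 had no value with probe sets averaged, so its hold on 2-fold was not tested there. The probe sets that did not stand for NUP58 differed by 0.083, -0.12 and 0.59, and only the first of these passed the filter. NUP155 and KPNA3 had no value with _x_at and _s_at probe sets left out. Since NUP155 has 1 probe set, neither averaging nor taking the largest difference could move it. KPNA3 has 1 probe set past the filter, so taking the largest difference could not move it either. Over the planned settings the lowest log2 difference was 0.83 for TNPO3, 0.68 for KPNA1, 0.69 for KPNA4, 0.56 for NUP153, 0.77 for TNPO1 and 0.62 for IPO7. Dim probe sets limit 8 members that did not pass the filter.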

Other observations

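Some probe sets name a transport gene together with others and entered no gene value. A probe set shared by NUP62 and IL4I1 read 27.7 in the Sox2-labelled array and 37.3 in the control. A probe set shared by RANBP2 and 7 related RGPD genes read 7.38 and 14.6, under the filter in both arrays. Of the 3 that name IPO11 with LRRC70 or their read-through transcript, 1 passed the filter, at 42.5 and 41.3. None of these 5 probe sets was at least 2-fold higher.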
